A study of Caenorhabditis elegans with 5 samples.

Results

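The X chromosome of Caenorhabditis elegans carried 829 of the 7653 regions (10.8%) obtained when the called H3K36me3 peaks of 4 ChIP-seq libraries were merged wherever they overlapped by at least 1 bp. The 829 regions are described here by position, width, spacing and presence in each list, and are set against the 6824 regions of the 5 autosomes. The libraries came from whole first-stage (L1) larvae, 600 to a sample, that had hatched overnight in buffer without food. Of the 4, 2 were of the double mutant spr-5; met-2, which carries spr-5 (by101) on chromosome I together with met-2 (n4256) on chromosome III, and 2 were of the wild-type strain N2. All were immunoprecipitated with the same H3K36me3 antibody, and the 1 input library of the series, titled as N2 replicate 2, was not analysed here. Animals were grown at 20 °C on the bacterial strain OP50. Coordinates are those of the deposited lists, on ce10 per the submitters' processing notes, and no annotation of that build was used, so regions are named by position and not by gene.

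H3K36me3 is trimethylation of lysine 36 of histone H3 and is a mark of transcribed gene bodies. In worms, MET-1 lays it down during transcription, whereas MES-4 maintains it on genes that were expressed in the parental germline, mainly on the autosomes and at the left tip of the X. The X is largely silent in the germline, and in the somatic cells that make up most of an L1 larva its genes are transcribed under dosage compensation. SPR-5 removes methyl groups from H3K4 and MET-2 methylates H3K9. The study set H3K36me3 in the progeny of animals mutant for both against that in wild-type progeny. Since each sample pools 600 whole larvae, a mark in few cells or few animals and a weak mark in many cannot be told apart.

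The lists differed in covered length by replicate number more than by genotype, also on the X. There were 517 X peaks in spr-5; met-2 replicate 1 and 125 in spr-5; met-2 replicate 2, against 536 in N2 replicate 1 and 399 in N2 replicate 2. They covered 2.44% and 0.368% of the X in the mutant, against 3.31% and 0.582% in N2. A peak list records only whether a position passed the authors' threshold, and the read depth behind it is unknown. Nothing in the labels says that the replicates were separate cultures, so p-values measure the spread between these samples, which may be technical. In mutant replicate 2, 1 peak of 30314 bp made up 46.5% of the X coverage and lay where none of the other 3 lists had a peak. Without it that library covered 0.197% of the X, and most other values that it moves by over 1.5 times are given with and without it.

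With a peak counted as present by any overlap and at any width, about as many X regions were private to 1 list as were shared. Of the 829, 435 (52.5%, Wilson 95% interval 49.1 to 55.9%) had a peak in 1 library, 186 (22.4%) in 2, 112 (13.5%) in 3 and 96 (11.6%, interval 9.58 to 13.9%) in all 4. On the autosomes 44.8% of regions (interval 43.6 to 46.0%) had a peak in 1 library and 17.5% (interval 16.6 to 18.4%) in all 4. The intervals cover counting error only, and regions are not replicates. The X shares depended on how presence was defined: when peaks under 500 bp were left out, 38.7% were in 1 list and 4.53% in all 4. When a list had to cover at least 50% of the merged region, 66.7% were in 1 list and 5.67% in all 4, and with peaks joined within 1000 bp 42.9% were in 1 list. With any overlap and at any width, the X share was higher than the autosomal one for 1 list and lower for all 4. The other definitions were applied to the X alone, and the difference was not tested over libraries.

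**Figure D1:**
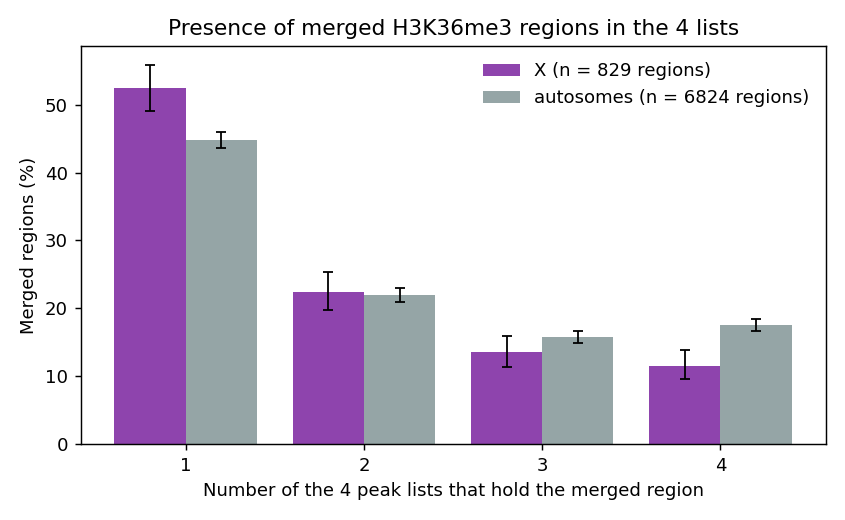
Percentage of merged H3K36me3 regions (vertical axis) held by 1, 2, 3 or 4 of the peak lists (horizontal axis), for X (purple) and the autosomes (grey); error bars are Wilson 95% intervals, which cover counting error only. The X bar is higher at 1 list (52.5% against 44.8%) and lower at 4 lists (11.6% against 17.5%).

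The 829 regions fell into 12 of the 15 possible combinations of lists. The most frequent was N2 replicate 1 alone, with 167 regions (20.1% of X regions, against 14.8% of autosomal regions). Both replicate 1 lists together, and no other, held 141 regions (17.0%, against 18.3% on the autosomes). N2 replicate 2 alone held 129 (15.6%, against 8.15%), and mutant replicate 1 alone 123 (14.8%, against 19.8%). N2 lists therefore contributed more of the private X regions and mutant replicate 1 fewer than on the autosomes. The 103 regions found in every list but mutant replicate 2 made up 12.4% of X regions and 12.9% of autosomal ones. No X region was shared by the replicate 2 lists alone.

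Width separated the X regions of all 4 lists into a narrow and a broad kind. Their median width was 283 bp on the X, against 3621 bp on the autosomes. On the X, 52 of the 96 (54.2%) were under 500 bp wide, whereas on the autosomes 176 of 1195 (14.7%) were. Narrow shared regions were no sparser on the X, at 2.93 per Mb of X and 2.13 per Mb of autosome (1.64 to 2.61 on the single autosomes). Broad shared regions of at least 500 bp numbered 44 on the X, or 2.48 per Mb, against 1019 on the autosomes, or 12.3 per Mb. The single autosomes differed, with a narrow share from 11.7% on III to 20.8% on V. Chromosome V, measured over 20.9 Mb, held 168 shared regions, 35 of them narrow. Its broad ones were thus sparser than the pooled density, though denser than those of the X. The 500 bp limit was set after the widths had been seen, and it lies in the trough between the modes of both distributions, so these counts are a description.

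**Figure D2:**
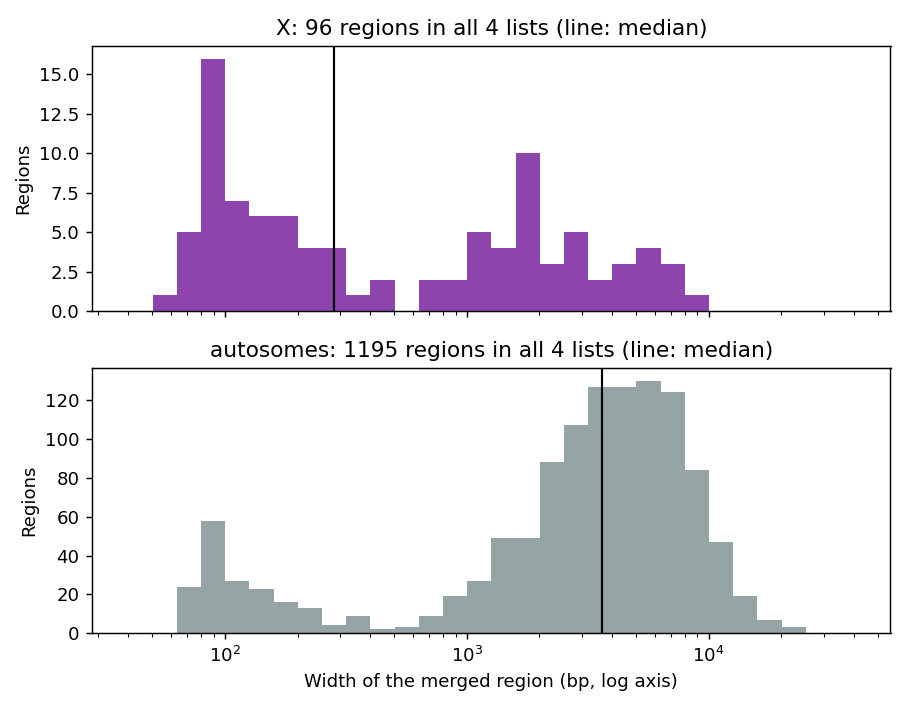
Number of merged regions in all 4 lists (vertical axes) by width in bp (log axis), for X (top, 96 regions) and the autosomes (bottom, 1195 regions); the vertical line is the median. Both panels show a narrow and a broad mode, and the medians of 283 bp on the X and 3621 bp on the autosomes lie on opposite sides of the trough.

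Within the narrow shared X regions the median length covered was 86 bp (replicate 1) and 66 bp (replicate 2) in the mutant, against 100.5 bp and 88.5 bp in N2. In 38 of the 52 the widest and the narrowest of the 4 peaks differed by at most 50 bp, and in 51 the narrowest was that of mutant replicate 2. As the regions were chosen for a small merged width, these spreads are small in part by that choice. An example is chrX:4023022-4023210, where the peak measured 173 and 166 bp in the mutant and 189 and 182 bp in N2. Another, chrX:11643867-11644091, measured 225 and 193 bp in the mutant and 222 and 214 bp in N2, and the last, chrX:14229389-14229609, measured 216 and 196 bp against 221 and 208 bp. These 3 examples were chosen after their values were seen. Each narrow region held 1 peak per list, which its width fixes, since peaks of a list lay at least 1201 bp apart. The 52 lay scattered, with 16 in the left part of the X, 17 in the centre and 19 in the right part. The median distance between neighbours was 207295 bp. These narrow regions accounted for 41.6% of all X peaks of mutant replicate 2, against 13.0% in N2 replicate 2. In replicate 1 they accounted for 10.1% in the mutant and 9.70% in N2. On the autosomes narrow shared regions held 9.71% and 3.28% of the peaks in mutant replicates 2 and 1, and 5.06% and 3.54% in N2 replicates 2 and 1. Whether the input library has signal at these positions was not tested.

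The same contrast was measured over all peaks of each library. Peaks under 500 bp were 0.670 and 0.350 times as dense on the X as on the autosomes in mutant replicates 1 and 2, and 0.638 times as dense in each N2 library. For peaks of at least 500 bp the ratios were 0.296 and 0.221 in the mutant, against 0.409 and 0.263 in N2. The ratio for broad peaks was below that for narrow peaks in 4 of 4 libraries, on average by a factor of 0.521 (mean log2 difference −0.94 ± 0.33, SD, n = 4). An exact two-sided sign-flip permutation test over the 4 libraries gave p = 0.13, which is 2 of 16 sign patterns and the smallest p that 4 libraries can give. In these lists the deficit of the X in called peaks was larger for broad peaks than for narrow ones in every library. The 500 bp limit and the contrast came from these same lists, and the narrow shared regions are among the peaks counted. The test is therefore no independent support for the contrast.

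**Figure D3:**
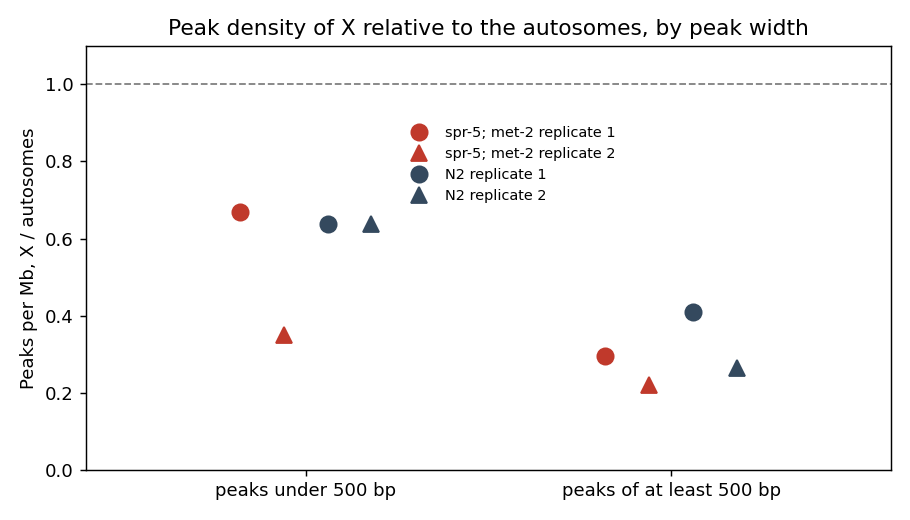
Peaks per Mb on the X divided by peaks per Mb on the autosomes (vertical axis), for peaks under 500 bp (left) and of at least 500 bp (right), one point per library (circles replicate 1, triangles replicate 2; red spr-5; met-2, dark blue N2). All points lie below the dashed line at 1, and in each library the point for broad peaks is lower, at 0.221 to 0.409.

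Over all widths, X peaks were fewer per Mb and, by their median, narrower than those of the pooled autosomes in all 4 libraries. Chromosome V, measured over 20.9 Mb, held 783 and 248 peaks in mutant replicates 1 and 2, and 728 and 514 in N2. The X, measured over 17.7 Mb, held 517 and 125, and 536 and 399. In peaks per Mb the X was thus below V too, but nearer to V than to the pooled autosomes. The median X peak was 274 and 120 bp wide in the mutant, against 444 and 115 bp in N2 (replicates 1 and 2). The autosomal medians were 878 and 169 bp in the mutant and 872 and 185 bp in N2. Peaks of at least 1000 bp made up 27.5% of X peaks in mutant replicate 1 and 36.2% in N2 replicate 1, against 47.3% of autosomal peaks in either library. In replicate 2 they made up 7.20% of X peaks in the mutant and 6.02% in N2, against 12.3% and 16.9% of autosomal peaks. The X to autosome ratio of median widths had a geometric mean of 0.515 and that of peaks per Mb a geometric mean of 0.443; each was below 1 in 4 of 4 libraries (exact sign-flip permutation p = 0.13, the smallest possible).

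Merged X regions ranged from 42 to 30314 bp, with a median of 245 bp (quartiles 93 and 1080 bp). Autosomal regions had a median of 566 bp. Width followed presence except in the class with all 4 lists: the median was 162 bp for X regions in 1 list, 863.5 bp in 2, 1903.5 bp in 3 and 283 bp in 4. On the autosomes it was 183, 1101, 2231 and 3621 bp. The autosomal medians thus increased through all 4 classes, and those of the X did not. A merged region is the union of its peaks, and a wide peak meets others more easily. An increase of width with presence is therefore in part built into the merging.

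Along the chromosome, the left part (up to 6.137 Mb) held 326 regions, the centre (6.137 to 12.48 Mb) 236 and the right part (beyond 12.48 Mb, 5.24 Mb long to the last covered base) 267. That is 53.1, 37.2 and 51.0 regions per Mb. The parts differed less in width, with median regions of 220, 273 and 269 bp. Regions of the left part were most often private to 1 list (57.7%, interval 52.2 to 62.9%), followed by the centre (51.3%, interval 44.9 to 57.6%) and the right part (47.2%, interval 41.3 to 53.2%). The intervals of neighbours in this order overlap. The centre of the X was sparser in regions, and each of the 4 libraries also had its fewest peaks per Mb there, although in mutant replicate 2 the parts were nearly level and, without the 30314 bp peak, the left part had fewest (6.84 per Mb). Peaks numbered 32.3, 22.7 and 33.4 per Mb in the left, centre and right parts in mutant replicate 1 and 7.01, 6.94 and 7.25 per Mb in mutant replicate 2. In N2 the densities were 32.1, 25.2 and 34.2 per Mb in replicate 1 and 24.3, 18.9 and 24.8 per Mb in replicate 2.

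With the 30314 bp peak included, coverage of the X was not higher in the middle than at the sides in any library. With each chromosome cut into 3 stretches of equal length, the middle stretch of the X was covered over 2.30% and 0.295% of its length in mutant replicates 1 and 2, against 2.51% and 0.405% for the outer stretches. In N2 the middle stretch was covered over 3.24% and 0.538%, against 3.34% and 0.604% for the outer stretches. The ratio of middle to outer coverage on the X was thus 0.919 and 0.728 in the mutant and 0.969 and 0.891 in N2. On the autosomes the same ratio ranged from 0.998 to 3.02 in the mutant and from 1.03 to 1.78 in N2, and in 4 of 4 libraries the X was below every autosome. Relative to the geometric mean of the autosomes the X ratio was lower by 0.66 ± 0.48 on the log2 scale (SD, n = 4; exact sign-flip permutation p = 0.13, the smallest possible). Without the 30314 bp peak the outer stretches of mutant replicate 2 were covered over 0.148%, and its ratio was 1.99. The X was then below every autosome in 3 libraries. Relative to the autosomes its ratio then had a mean of −0.30 ± 0.29 on the log2 scale (SD, n = 4; exact sign-flip permutation p = 0.25). This comparison of stretches was added after the data had been seen.

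In bins of 1 Mb, coverage of the X varied along its length, and every bin held peaks of all 4 lists. The fifth bin from the left end (4 to 5 Mb) was covered over 3.85% and 3.56% in mutant replicates 1 and 2, against 6.05% and 1.103% in N2 replicates 1 and 2. Without the 30314 bp peak the value of mutant replicate 2 was 0.532%. The fifteenth bin (14 to 15 Mb) was covered over 4.61% and 0.112% in the mutant and 6.39% and 0.966% in N2, and the sixteenth over 3.49% and 0.147% against 4.31% and 1.34%. These 3 bins had the highest coverage of the 18 in mutant replicate 1, in N2 replicate 1 and in N2 replicate 2. The thirteenth bin (12 to 13 Mb) was among the least covered, with 1.27% and 0.0683% in the mutant and 2.06% and 0.181% in N2.

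**Figure D4:**
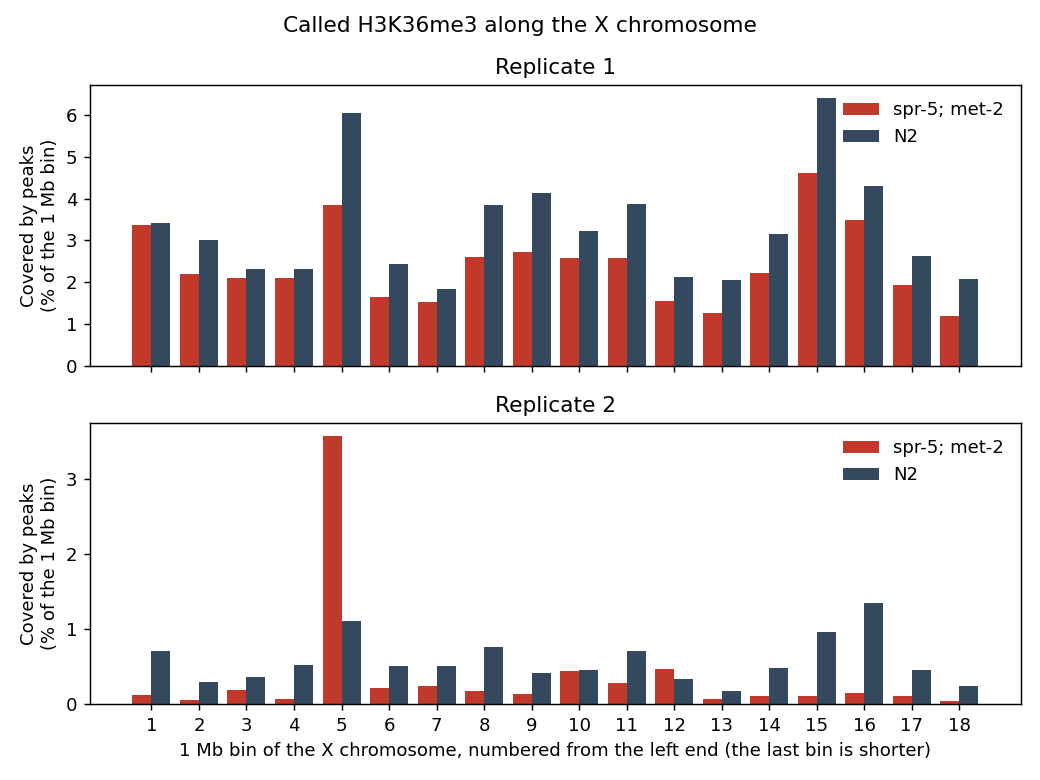
Percentage of each 1 Mb bin of the X covered by called peaks (vertical axes), with bins numbered from the left end (horizontal axis), in replicate 1 (top) and replicate 2 (bottom), for spr-5; met-2 (red) and N2 (dark blue). In replicate 1 the mutant bar is lower in 18 of 18 bins; the tall mutant bar of replicate 2 in the fifth bin (3.56%) holds the 30314 bp peak.

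The profiles of 3 libraries had a similar shape. Across the 18 bins, Pearson's r was 0.93 between mutant replicate 1 and N2 replicate 1, 0.82 between mutant replicate 1 and N2 replicate 2, and 0.77 between the N2 libraries. For mutant replicate 2 it was 0.37 to 0.51 with the 3 others, and −0.092 to −0.0066 when the fifth bin was left out. That step removes more than the 30314 bp peak, as the fifth bin was among the most covered in the 3 other lists. Pearson's r without that peak alone was not computed. Spearman's rho, in which 1 bin has less weight, was 0.22 to 0.34 for mutant replicate 2 over all 18 bins. Bins share a library's depth and are not independent replicates, so these coefficients are descriptive.

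Judged by its first 1 Mb, the left end of the X, where MES-4 is known to bind, was not uniformly richer than the rest. The first 1 Mb was covered over 3.36% in mutant replicate 1 and 0.119% in mutant replicate 2, against 3.41% and 0.712% in N2. This was 1.41 and 0.311 times the coverage of the remaining X in the mutant, and 1.03 and 1.24 times in N2. Without the 30314 bp peak, which lies in the remaining X, the value of mutant replicate 2 was 0.592. By number, the first bin held 48 peaks in mutant replicate 1, the most of its 18 bins, and 6 in mutant replicate 2, against 36 and 25 in N2. The first 1 Mb of every autosome was covered more than that of the X in all 4 libraries, over 7.39 to 10.8% in mutant replicate 1 and 7.58 to 11.2% in N2 replicate 1. The first 2 regions from the left end, chrX:35-231 (197 bp) and chrX:8868-9019 (152 bp), were each found in 1 mutant library, the first in replicate 2 and the second in replicate 1. At the right end chrX:17718760-17718834 (75 bp) was found in mutant replicate 2 alone and chrX:17663638-17663754 (117 bp) in N2 replicate 2 alone.

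X regions lay further apart than those of the pooled autosomes, although chromosome V was nearly as sparse, with 46.8 regions per Mb on the X, 49.3 on V and 71.1 to 120 on the other autosomes. The median gap between neighbouring merged regions was 10879 bp on the X, against 2960 bp on the autosomes, and 34.2% of X gaps were at most 5 kb, against 61.4% of autosomal gaps. In the left, centre and right parts of the X the median gap was 10105, 15998 and 8844 bp. Of the 19 X gaps of at least 100 kb, 10 lay in the centre, 7 in the right part and 2 in the left part. The 5 widest were all in the centre: chrX:6841852-7049016 (207 kb), chrX:10198420-10375403 (177 kb), chrX:12219446-12394389 (175 kb), chrX:6568955-6725001 (156 kb) and chrX:8574736-8721878 (147 kb). No list had a peak in any of them. Within single lists neighbouring X peaks had a median gap of 18729 and 99311 bp in the mutant, replicates 1 and 2, against 18384 and 27989 bp in N2.

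Between genotypes, X coverage was 1.40 ± 1.47% in spr-5; met-2 and 1.94 ± 1.93% in N2 (SD, n = 2 each). The difference of −0.54 percentage points was smaller than the SD of either group (exact two-sided permutation test, p = 0.667, where 2 libraries against 2 cannot go below 0.333). By part, coverage was 1.63 ± 1.29% against 1.93 ± 1.87% on the left (p = 1), 1.198 ± 1.33% against 1.79 ± 1.83% in the centre (p = 0.667) and 1.40 ± 1.84% against 2.15 ± 2.11% on the right (p = 0.667), mutant first, by the same exact permutation test. Without the 30314 bp peak, coverage was 1.32 ± 1.59% in the mutant over the whole X and 1.38 ± 1.64% on the left (exact permutation p = 0.667 for either). Without mutant replicate 2 the whole-X difference was 0.496 percentage points, and without N2 replicate 1 it was 0.823, so that leaving out either library turned its sign. None of these differences exceeded the replicate spread. Peaks per Mb of X averaged 18.1 ± 15.6 in the mutant and 26.4 ± 5.47 in N2 (exact permutation p = 0.667). The median peak width averaged 197 ± 109 bp in the mutant and 280 ± 233 bp in N2, and the median gap 59020 ± 56980 bp in the mutant and 23187 ± 6792 bp in N2 (exact permutation p = 1 and p = 0.667).

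Within replicate 1, where the lists were of similar length, the X went the other way from the autosomes. The mutant covered 0.738 times the N2 length on the X, whereas on the 5 autosomes it covered 1.02 to 1.07 times. The number of X peaks was 0.965 times that of N2 and their mean width 0.765 times. X peaks of at least 500 bp numbered 202 in the mutant and 258 in N2, and those under 500 bp 315 and 278. The lower mean width thus partly reflects fewer broad and more narrow peaks. These values set 1 library against 1 and have no replicate check of their own. Coverage was lower in the mutant in 18 of 18 X bins of 1 Mb, with a median difference of -0.80 percentage points, and in 29 of 82 autosomal bins (35.4%). With bins of 0.5 Mb the mutant was lower in 32 of 35 X bins and 60 of 166 autosomal bins. The ratio was 0.782 in the left part of the X, 0.693 in the centre and 0.739 in the right part.

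Replicate 2 gave the same order of X and autosomes only when the 30314 bp peak was left out, and then not in every part of the X. With it, the mutant covered 0.632 times the N2 length on the X and 0.373 to 0.436 times on the autosomes. Without it the X ratio was 0.338, below all 5 autosomes, and the mutant was lower in 17 of 18 bins (16 with the peak). On the autosomes the mutant was lower in 81 of 82 bins. By part and without that peak, the ratio was 0.365 on the left (1.18 with it), 0.515 in the centre and 0.147 on the right. The centre was thus above all 5 autosomes, the left part just below them, and the right part far below.

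**Figure D5:**
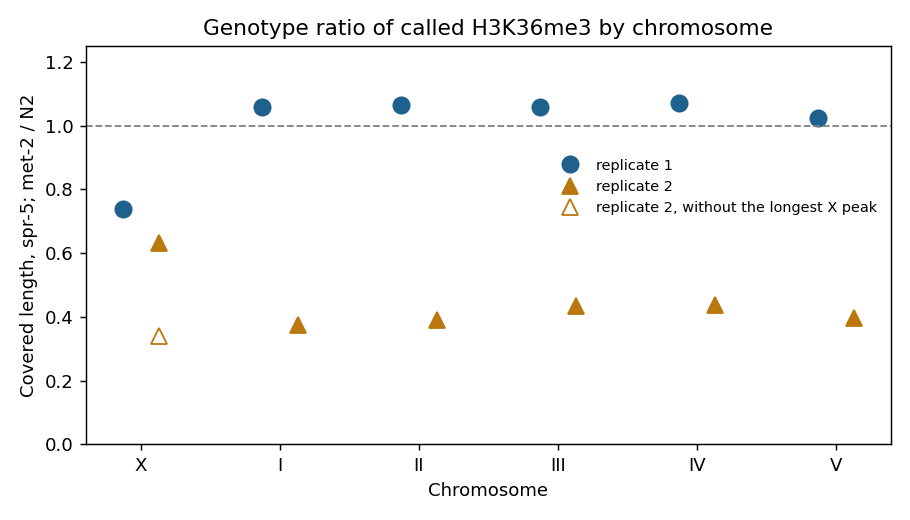
Covered length in spr-5; met-2 divided by that in N2 (vertical axis) for each chromosome (horizontal axis, X first), within replicate 1 (circles) and replicate 2 (filled triangles); the open triangle leaves out the 30314 bp X peak of mutant replicate 2. In replicate 1 the X is at 0.738 and the autosomes at 1.02 to 1.07; in replicate 2 the X is at 0.632 with that peak and 0.338 without it.

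Expressed as a ratio of X to autosome coverage within each library, the mutant had 0.229 and 0.424 and N2 had 0.328 and 0.273 (exact permutation p = 1). Without the 30314 bp peak the mutant had 0.229 and 0.227, both below the N2 values (exact permutation p = 0.333, the smallest possible). The ratio of peaks per Mb, on which 1 peak has little weight, was 0.449 and 0.321 in the mutant and 0.502 and 0.534 in N2 (exact permutation p = 0.333, the smallest possible). The genotypes did not overlap in these last 2 measures, the first only after a peak of 1 mutant library was removed, but 2 libraries against 2 cannot give a smaller p. Split at 500 bp, the ratio of peaks per Mb overlapped between genotypes in both width classes. For narrow peaks it was 0.670 and 0.350 in the mutant, against 0.638 in each N2 library. For broad peaks it was 0.296 and 0.221, against 0.409 and 0.263.

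Regions with a peak in both libraries of a replicate number showed how peak extent differed. In replicate 1, 348 X regions were shared, and the mutant peak was shorter in 234 (67.2%) and longer in 111, with a median log2 ratio of mutant to N2 covered length of −0.18 (quartiles −0.77 and 0.12). Over the 3504 autosomal regions shared in replicate 1 the mutant peak was shorter in 50.5% and the median was −0.0063. By part, 66.1%, 68.2% and 67.5% were shorter in the mutant in the left, centre and right part of the X. In replicate 2 the mutant peak was shorter in 88 of 97 shared X regions (90.7%, median log2 ratio −0.35), against 78.7% of 1218 shared autosomal regions (median −0.65). In replicate 1 the X median was thus below the autosomal one, and in replicate 2 above it. Nearly all regions shared in replicate 2 were in all 4 lists, where 54.2% of X regions and 14.7% of autosomal ones were under 500 bp. Whether the change of order between replicates follows this difference in width was not tested.

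Calls in 1 genotype alone followed the same lines. In replicate 1, 153 X regions (18.5%) had a peak in the mutant and not in N2, where 21.6% of all 7653 regions did, and 183 (22.1%) had a peak in N2 and not in the mutant, where 16.9% of all regions did. In replicate 2, 26 X regions (3.14%) had a peak in the mutant and not in N2, where the share of all regions was 5.04%, and 275 (33.2%) had one in N2 and not in the mutant, where it was 25.0%. On the X, N2-only regions thus outnumbered mutant-only ones in both replicates. Over all chromosomes mutant-only regions were the more numerous in replicate 1. Within the X, mutant-only regions of replicate 1 made up 22.7% of regions in the left part, 11.9% in the centre and 19.1% in the right part.

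Only 2 X regions (0.241%) had a peak in both mutant libraries and in neither N2 library, where 0.405% of all regions did. The first, chrX:10482207-10482282 in the centre, held mutant peaks of 76 bp (replicate 1) and 42 bp (replicate 2). At the other, chrX:16232019-16232349 in the right part, they measured 302 and 95 bp. The 42 bp peak was the shortest X peak of its list. Leaving out a library relaxes this rule, so the count can rise for that reason alone. It was 125 without mutant replicate 2, 19 without mutant replicate 1, 7 without N2 replicate 1 and 2 without N2 replicate 2. These counts were made on the X alone, with no share over all regions to set beside them.

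In the other direction, 15 X regions (1.81%) had a peak in both N2 libraries and in neither mutant library, where 1.28% of all regions did. Of these, 6 lay in the left part, 2 in the centre and 7 in the right part, and their median width was 190 bp. The widest was chrX:13727279-13729529, with no peak in the mutant and 2251 and 187 bp covered in N2 replicates 1 and 2. It was followed by chrX:229767-231212, with 1446 and 141 bp in N2, by chrX:877548-878796, with 1249 and 128 bp, and by chrX:4461141-4462197, with 1025 and 184 bp. In these 4 regions of at least 1000 bp the replicate 2 peak was a small fraction of the replicate 1 peak. At chrX:15430599-15431130 the N2 peaks measured 519 and 321 bp.

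The remaining 10 N2-specific regions were under 300 bp. In 5 of them the replicate 2 peak was the longer. They include chrX:14728110-14728306 (183 and 197 bp), chrX:14747430-14747619 (187 and 188 bp) and chrX:7249792-7250018 (104 and 172 bp). They also include chrX:16040284-16040449 (70 and 166 bp) and chrX:7242233-7242313 (57 and 74 bp). The other 5 were longer in replicate 1, among them chrX:13949110-13949293 (166 and 57 bp). The last 4 were chrX:1219878-1219959 (82 and 46 bp), chrX:1880814-1880874 (61 and 48 bp), chrX:2990053-2990118 (65 and 57 bp) and chrX:16147794-16147880 (87 and 49 bp). Across the 15, the longest N2 replicate 2 peak was that of 321 bp. The N2-specific count was 114 without mutant replicate 1, 16 without mutant replicate 2, 156 without N2 replicate 1 and 182 without N2 replicate 2. Here too a left-out library relaxes the rule, and no share over all regions was computed.

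Among the regions of all 4 lists, the 10 with the largest mean covered length spanned the whole X, 4 in the left part, 3 in the centre and 3 in the right part. The first, chrX:10569125-10574890 in the centre, was covered over 4312 and 2314 bp in the mutant (replicates 1 and 2), against 5744 and 3046 bp in N2. The second, chrX:1439507-1447655 on the left, was covered over 5253 and 213 bp in the mutant, against 8149 and 1297 bp in N2. The third, chrX:4611376-4618985, was covered over 5682 and 65 bp, against 7496 and 1362 bp. The mutant values of these 3 regions were below the N2 value of the same replicate number each time, and only the first stayed broad in mutant replicate 2.

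The next 3 were less uniform. The region chrX:14163340-14169471 on the right was covered over 5763 and 80 bp in the mutant and 6115 and 981 bp in N2, and chrX:6809137-6816238 in the centre over 5392 and 187 bp, against 6775 and 438 bp. At chrX:43040-49762, within the first 50 kb of the X, the mutant was covered over 6723 and 733 bp and N2 over 4407 and 280 bp. This last region alone among the 10 was longer in the mutant in both replicates, by factors of 1.53 and 2.62.

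The other 4 were chrX:7333934-7339740 (3842 and 221 bp in the mutant, 5807 and 1626 bp in N2), chrX:14102313-14107593 (4879 and 175 bp, 5059 and 1280 bp), chrX:15605073-15609986 (4218 and 139 bp, 3643 and 3152 bp) and chrX:4602274-4606650 (3158 and 1364 bp, 4292 and 370 bp). Of the 10, 8 were shorter in the mutant in replicate 1 and 8 in replicate 2. As the regions were ranked on covered length, these counts are a description.

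The 5 longest single peaks of the X were the 30314 bp peak of mutant replicate 2 and 4 peaks of the replicate 1 lists. The longest, at chrX:4026048-4056361, began 2837 bp to the right of the narrow region chrX:4023022-4023210, which all 4 lists held. The next region to its right lay 18020 bp away and was found in N2 replicate 2 alone. The second longest, of 9292 bp in N2 replicate 1 (chrX:4298280-4307571), was covered over 3537 bp in mutant replicate 1 and had no peak in either replicate 2 list. The third, of 8939 bp in mutant replicate 1 (chrX:15726081-15735019), was covered over 8004 bp in N2 replicate 1 and also had no peak in replicate 2. The fourth, of 8528 bp in mutant replicate 1 (chrX:3118471-3126998), lay in a region with 7761 bp covered in N2 replicate 1, 885 bp in N2 replicate 2 and none in mutant replicate 2. The fifth, of 8149 bp in N2 replicate 1, is the region chrX:1439507-1447655 given above. The first of the 5 is thus the only one with no counterpart in any other list.

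By the length shared by a pair of lists as a fraction of the length that either covered, the replicate 1 lists overlapped by 0.506 on the X and 0.558 on the autosomes, and the value on the X was the lower in all 6 pairs. Of the mutant replicate 1 length, 79.1% lay within N2 replicate 1 on the X, against 69.7% on the autosomes. Of the N2 replicate 1 length, 58.4% lay within mutant replicate 1 on the X, against 73.7% on the autosomes. In any pair the shorter list is the more fully contained by this measure. Here that was the mutant list on the X and the N2 list on the autosomes, which only restates their covered lengths. Of the N2 replicate 2 length on the X, 70.9% lay within mutant replicate 1 and 75.5% within N2 replicate 1, against 85.3% and 87.4% on the autosomes. Of the mutant replicate 2 length on the X, 38.9% lay within mutant replicate 1, 40.2% within N2 replicate 1 and 29.5% within N2 replicate 2, against 87.3%, 85.6% and 51.8% on the autosomes. Without the 30314 bp peak these X values were 72.8%, 75.2% and 55.1%, of which the last was above the autosomal value. The X length of mutant replicate 2 thus lay within the N2 replicate 1 list to about the same share as within the other list of its own genotype.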

How the data were processed

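For each ChIP library the authors deposited broad peaks as chromosome, start and end, with no count, score or p-value per peak. Per the submitters' processing notes the build is ce10 and FastQC, Bowtie2, deepTools, MACS2 and bedtools were used; versions, the control, read filters and the peak threshold are not given in the sources used here. The smallest gap within a list was 1201 bp (1202 bp in N2 replicate 2). Coordinates are 1-based, so each start is the deposited BED start plus 1. The gene table at hand is of another build and no genome was used, so no gene or sequence is given.

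Peaks of the 4 lists were merged where they overlapped by at least 1 bp (Python 3.11.15, numpy 2.4.6, scipy 1.17.1), after the code had been tested on simulated data. Genotypes and replicate numbers come from sample titles. Libraries, never regions, were the units of the tests: an exact two-sided permutation test over 6 assignments of 4 libraries, and an exact sign-flip test over 16 patterns for ratios of X to autosomes. A region belongs to the part of X that holds its midpoint, and each chromosome is measured up to the last base under a peak. Named regions are all genotype-specific ones, the 10 with the largest mean covered length among those in all 4 lists, the 5 longest peaks, the 5 widest gaps and the 2 regions nearest each end. The members, lists and rules were chosen with earlier results of these data known. Alternatives tried were a 500 bp minimum width, leaving out the longest X peak or 1 library, parts of equal length, other end windows, 50% presence, joining within 1000 bp, smaller bins and a replicate block. The comparison of equal stretches, the 500 bp split and the bins without the longest peak were added after the data had been seen.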

Additional observations from a re-analysis of the deposited data

How the results depend on the processing

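With 2 libraries a genotype, no difference could pass 0.05, and the unknown depth limits which short peaks could be called. Leaving out 1 library set the sign of most genotype differences. Differences in X coverage then ranged from -1.90 to 0.823 percentage points over the whole X, from -1.62 to 1.02 on the left, from -1.89 to 0.699 in the centre and from -2.25 to 0.737 on the right. Those in peaks per Mb ranged from -19.3 to 2.79 over the whole X and from -21.2 to 4.07, from -15.1 to 0.631 and from -22.2 to 3.91 in the left, centre and right part. The ranges were -247 to 82 bp for median width, -4457.5 to 76124.5 bp for the median gap and -1.94 to 1.30 percentage points for the first 1 Mb, whose difference was also positive, at 0.466, over the first 0.5 Mb.

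The share of X coverage in the centre differed by -3.86 percentage points, and by 6.999 without the longest X peak. That setting also took the difference in the left share to 2.44, against 16.7 with the peak. Of regions specific to spr-5; met-2, a 500 bp minimum width left 0, and there were 1 with 50% presence, 1 with joined peaks and 2 to 125 without 1 library. The same minimum left 4 N2-specific regions, and leaving out 1 library gave 16 to 182. X regions in all 4 lists made up 4.53% with peaks of at least 500 bp and 5.67% with 50% presence, and 13.5 to 24.5% were in all 3 remaining lists without 1 library. Regions in 1 list made up 38.7% with peaks of at least 500 bp, 66.7% with 50% presence, 42.9% with joined peaks and 49.9 to 69.6% without 1 library. Fewer peaks or lists alone change these counts; other causes were not tested. The 3 mean log2 ratios of X to autosomes stayed negative in all alternatives run. A replicate block left each difference as it was (-0.54 percentage points for X coverage, exact sign-flip p = 0.5, the smallest possible) and changed no call. The labels do not say what a replicate number shares. Deviations of replicate 1 from its genotype mean correlated between genotypes at r = 0.74 over 1772 bins of the X. In both genotypes the replicate 2 list covered far less of the X, so these deviations largely follow the peak positions of replicate 1. The coefficient therefore cannot tell what a replicate number shares.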
